A study of Homo sapiens with 17 samples.

Results

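Vitamin C is a cofactor of dioxygenases that take methyl groups off histones and DNA. In the embryo, blood arises from endothelium: haemogenic endothelial cells turn on blood transcription factors, round up and detach, a process called the endothelial-to-haematopoietic transition. The factors RUNX1, SPI1 and GATA1 are among its markers, and signals such as Notch and TGF-beta shape the endothelium and the mesenchyme around it.

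The data described here are 4 of the 17 libraries of an RNA sequencing study, the 2 VC+ and the 2 VC- cultures at 48 and 60 h after re-plating. They were chosen by their labels. All cells were of the established line H1 (human embryonic stem cells) with a green fluorescent reporter at GATA2, a gene of haemogenic endothelium and blood progenitors, and had been made into reporter-positive endothelial cells with vitamin C (VC+) or without it (VC-). The reporter and the line are shared by every group, so the cells are those of 1 line. Of the other libraries, VC+ and VC- cultures at 0, 24 and 36 h, and suspended and adherent VC+ cells at 60 h, are used for comparison. No label says whether vitamin C was still in the medium after re-plating, or whether the libraries came from separate cultures. The title of the study names the KDM6 histone demethylases and the chromatin state for blood formation as its question.

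The libraries at 48 and 60 h are labelled as mixtures of endothelial and blood cells. They held 6547820 and 6832232 counts in VC+ cultures and 6480153 and 7733898 counts in VC- cultures, with 4.82% to 5.86% from mitochondrial genes, and no 2 libraries agreed within sampling noise. Defining endothelial markers (CDH5, PECAM1, KDR, TEK, ESAM, CLDN5) summed to 7479 and 6951 CPM at 48 and 60 h in VC+ cultures, against 6986 and 7786 CPM in VC- cultures, where CPM is the count scaled to library size and TMM factor. For 6 blood markers the sums were 322 and 427 CPM in VC+ cultures and 189.7 and 207 CPM in VC- cultures. PTPRC, the pan-leukocyte marker CD45, was at 0.15 and 0.289 CPM in VC+ cultures and at 0 in both VC- cultures, and MPO, a granulocyte enzyme, had no count in any of the 4. Endothelial markers were thus read in every library, and granulocyte MPO in none. In such bulk samples fewer cells of a type and less RNA per cell cannot be told apart. On the second principal component of the 10 course libraries (24.4% of the variance), which runs with time from 24 h on, VC+ cultures stood at 8.78 and 26.87 at 48 and 60 h, below VC- cultures at 19.97 and 46.23.

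Of 74 tested genes in 6 lists of blood genes 35 rose and 2 fell in VC+ cultures. Of 16 mesenchymal and smooth muscle genes 8 fell and none rose, and all 4 HOXA genes tested fell, as did 3 keratin genes. With edgeR's quasi-likelihood F test on 4 libraries, time point as a term and Benjamini-Hochberg adjustment at 0.05, 643 of 14793 genes tested (4.35%) differed, 274 higher (1.85%) and 369 lower (2.49%). At least 2-fold differences were found for 144 of the higher and 182 of the lower genes. In 610 of the 643 the levels of VC+ and VC- cultures did not overlap, and the difference had the same sign at both times in 642. The test picks genes whose difference is alike at both times, and these shares were not counted over all genes. The 2 counts therefore describe the called genes and lend the calls no further weight. Each condition and time has 1 library, which leaves 1 residual degree of freedom per gene. The p-values therefore measure whether a difference is alike at 48 and at 60 h, not how cultures vary. DESeq2, fitted to the same counts, called 223 of the same genes and no other. Its signs were alike for all 643, which adds no weight because the counts are shared. It gave no adjusted p for 8 of the 643, and such genes are not listed below as missed by DESeq2. Leaving out the VC- 60 h library, in a fit with the 24 and 36 h libraries, gave 415 calls. With time as a term, a fit without 1 library of a time also loses the comparison at that time. The late difference then rests on the other late time alone, and it is nearly the same without either library of the pair. A call lost without 1 named library, here and below, therefore does not single that library out. Without a term for time 89 genes were called. Of 126 called genes followed singly 75 then lost their call, among them GATA1, LMO2, PTPN6, HBG2, HBD, COL1A1, FN1 and MMP9. VWF, which is not counted among these 126, also lost its call without that term.

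**Figure D1:**
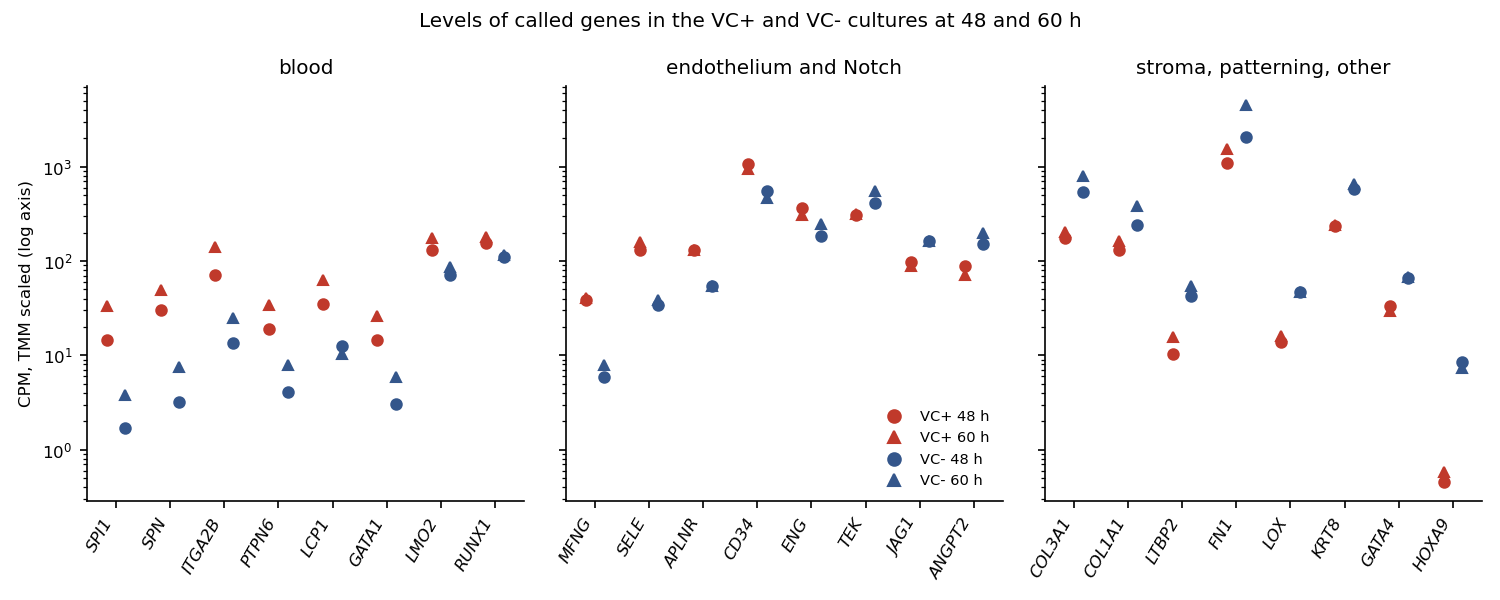
Level of 24 called genes in CPM (log axis) in VC+ cultures (red) and VC- cultures (blue) at 48 h (circles) and 60 h (triangles), 1 library per symbol. Blood genes lie higher in VC+ cultures at both times, and the 8 genes of the right panel lie lower, HOXA9 at 0.451 and 0.578 CPM in VC+ cultures against 8.41 and 7.30 CPM in VC- cultures.

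Blood transcription factors were higher in VC+ cultures for 11 of the 22 tested and lower for none, with a median log2 difference of 0.67 against 0.007 over all genes tested. SPI1 (chr11:47354860-47378576, minus strand, GRCh38), the PU.1 factor of myeloid and early blood cells, was at 14.6 and 33.3 CPM in VC+ cultures, against 1.68 and 3.78 CPM in VC- cultures at 48 and 60 h. That is a log2 difference of 3.13 ± 0.29 (SE; edgeR adjusted p = 2.45e-06), with both VC+ values above both VC- values. GATA1, the master factor of red cells and megakaryocytes, was at 14.4 and 26.2 CPM in VC+ cultures and 3.06 and 5.87 CPM in VC- cultures (2.19 ± 0.28). LMO2, a bridging protein of the blood stem cell complex, was at 130 and 176 CPM in VC+ cultures, against 70.8 and 85.7 CPM in VC- cultures (0.97 ± 0.13). Its DNA-binding partner TAL1 rose by 0.74 ± 0.12 and IKZF1, the Ikaros factor of lymphoid and other blood cells, by 1.32 ± 0.22.

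RUNX1, the factor that starts the transition in haemogenic endothelium, was at 154 and 179 CPM in VC+ cultures and 112 and 117 CPM in VC- cultures. Its difference was small (0.55 ± 0.12, adjusted p = 0.011), although the groups did not overlap. MYB, needed for definitive blood progenitors, rose by 0.60 ± 0.15. GATA2, whose reporter was used for the sort, was not called, at 239 and 270 CPM in VC+ cultures and 207 and 234 CPM in VC- cultures (0.21 ± 0.11, adjusted p = 0.395). GFI1, a repressor of the endothelial programme, was not called either and its groups overlapped (21.8 and 11.9 CPM in VC+ cultures, 13.1 and 17.0 CPM in VC- cultures). DESeq2 did not call RUNX1 or MYB. RUNX1 was not called without the VC- 60 h library (0.48), MYB without either 60 h library (0.38), and IKZF1 without either 48 h library (1.175 and 1.176).

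Genes of leukocyte signalling and surface proteins showed the same direction, with 10 of 19 tested higher, none lower and a median of 1.26. SPN, the sialomucin CD43 and an early surface mark of blood cells leaving the endothelium, was at 30.2 and 48.9 CPM in VC+ cultures, against 3.21 and 7.57 CPM in VC- cultures (2.91 ± 0.24). LCP1, an actin-bundling protein of leukocytes, was at 34.9 and 62.9 CPM in VC+ cultures and 12.5 and 10.4 CPM in VC- cultures (2.06 ± 0.23). PTPN6, the phosphatase SHP-1, was at 18.8 and 34.1 CPM in VC+ cultures and 4.13 and 7.96 CPM in VC- cultures (2.14 ± 0.25). VAV1, an exchange factor for Rac, and INPP5D, the phosphatase SHIP1, rose by 1.26 ± 0.18 and 0.79 ± 0.15.

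Since SPI1 itself rose, the promoters of the called blood genes were read for the core of its binding motif, GAGGAAGT, on both strands. The windows run from 250 bases before to 50 after the start in RefSeq (GRCh38.p14), and the motif is in capitals in 4 examples, given in gene orientation (ACTTCCTC is the motif on the other strand).
INPP5D, chr2:233060267-233060298, plus strand: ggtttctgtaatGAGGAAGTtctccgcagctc
LCP1, chr13:46182351-46182382, minus strand: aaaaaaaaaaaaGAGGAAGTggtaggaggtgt
VAV1, chr19:6772685-6772707, plus strand: acaggcaaagaaGAGGAAGTggt
TYROBP, chr19:35908296-35908319, minus strand: cacccgcctcagACTTCCTCcttc

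Of the 35 genes called higher in the 6 blood lists, 25 had a window and 5 of these held GAGGAAGT, PTPN6 with its match after the start. Of the 39 tested list genes not called higher, 27 had a window and 1 held it, and of all 189 genes called higher with a window 10.6% held it. A gene can have several windows. Counted by window, 5 of the 32 windows of the called list genes held it, against 6.49% of the 308 windows of all genes called higher and 2.59% of all 35116 windows. The match in VAV1 ends 4 bases before the start and that in INPP5D 56 bases before it. A match of letters is not a site shown to be bound, and no binding data were used here.

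Myeloid genes were scarce: 7 of 21 listed passed the filter on low counts and 3 of these rose. CSF1R, the macrophage colony-stimulating factor receptor, was at 2.25 and 3.18 CPM in VC+ cultures, against 0 and 0.13 CPM in VC- cultures. These are 15 and 22 counts in VC+ cultures and 0 and 1 in VC- cultures, a ratio of 39.0 with a 95% exact interval of 6.57 to 1580 for counting error only. TYROBP, a signalling adaptor of myeloid and natural killer cells, was at 2.41 and 4.05 CPM in VC+ cultures and 0.153 and 0.261 CPM in VC- cultures, or 16 and 28 counts against 1 and 2, a ratio of 15.4 (4.95 to 77.7). MRC1, the mannose receptor of macrophages and also of some endothelium, was at 189.9 and 187 CPM in VC+ cultures and 118 and 155 CPM in VC- cultures (0.49 ± 0.13). HDC, the histamine-forming enzyme of mast cells and basophils, was the 1 called among 3 tested genes of those cells (1.80 and 6.22 CPM in VC+ cultures, 0.153 and 0.913 CPM in VC- cultures). DESeq2 called none of TYROBP, MRC1 and HDC. CSF1R was not called without the VC- 48 h library and MRC1 without either 48 h library (0.28).

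Megakaryocyte genes divided. ITGA2B, the platelet integrin CD41 that also marks the first blood progenitors, had with COL3A1 one of the smallest p-values (adjusted p = 2.39e-08). It was at 70.4 and 141 CPM in VC+ cultures, against 13.6 and 24.8 CPM in VC- cultures (2.46 ± 0.16). PLEK, the platelet protein pleckstrin, was at 9.17 and 26.7 CPM in VC+ cultures and 1.68 and 2.09 CPM in VC- cultures (3.17 ± 0.36). GP1BA, part of the receptor for von Willebrand factor, rose by 2.46 ± 0.33 and RGS18, a platelet G protein regulator, by 1.13 ± 0.28. The 2 called lower of the 12 tested, F2RL2 (-0.52 ± 0.10) and VWF (-0.44 ± 0.12), were at 179 and 32.3 CPM in suspended VC+ cells at 60 h, against 353 and 209 CPM in adherent ones, and VWF is also made by endothelium. RGS18 and VWF were not called by DESeq2 or in the fit of 10 libraries. PLEK was not called without the VC+ 60 h library (2.44) and VWF without either 60 h library (-0.22). RGS18 was not called from either late time alone (0.98 to 1.24).

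Red cell genes rose for 6 of 12 tested, with none lower and a median of 1.299. The fetal globin HBG2 was at 10.5 and 48.6 CPM in VC+ cultures, against 2.45 and 14.6 CPM in VC- cultures (1.85 ± 0.24), and the delta globin HBD at 5.26 and 33.5 CPM, against 0.764 and 8.22 CPM (2.20 ± 0.31). Both globins were higher at 60 h than at 48 h in each condition, so that the VC- 60 h value exceeded the VC+ 48 h value. HBG2 has a near-identical copy, HBG1, and how reads were split between them is not stated. RHAG, the Rh-associated glycoprotein of the red cell membrane, was at 26.6 and 41.4 CPM in VC+ cultures and 13.1 and 13.0 CPM in VC- cultures (1.36 ± 0.22). RHAG was not called without either 60 h library (1.02), and HBG2 without the VC+ 60 h library (2.11).

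The GATA motif AGATAA was read in the same promoter windows as above, and 3 examples among the called blood genes show it in capitals (TTATCT is the other strand).
TAL1, chr1:47232353-47232382, minus strand: cgcggcagtgccTTATCTctgcggcgcaca
HBD, chr11:5234544-5234573, minus strand: atgaaaccctgcTTATCTtaaaccaacctg
IKZF1, chr7:50318930-50318993, plus strand: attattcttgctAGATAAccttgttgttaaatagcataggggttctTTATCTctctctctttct

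AGATAA or its complement stood in 5 of the 25 called genes with a window, in 5 of the 27 not called higher, and in 18.0% of all 189 genes called higher with a window. Counted by window it stood in 5 of the 32 windows of the called list genes, in 11.69% of the windows of all genes called higher and in 10.33% of all windows.

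**Figure D2:**
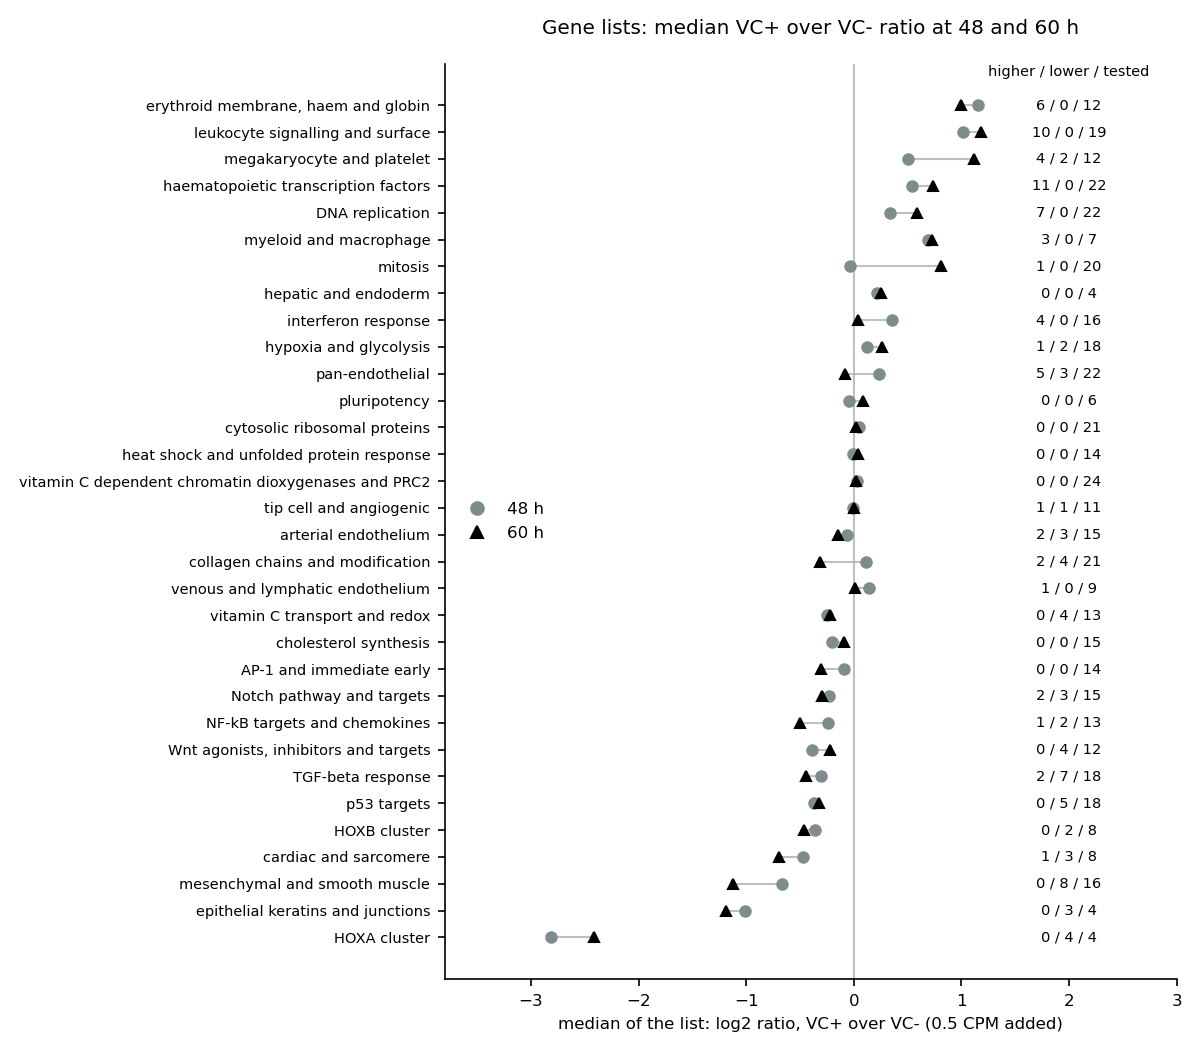
Median log2 ratio of VC+ over VC- cultures (0.5 CPM added) for each gene list with at least 4 tested genes other than antigen presentation, at 48 h (circles) and 60 h (triangles). Numbers at the right count genes called higher, called lower and tested. Blood lists lie right of 0 at both times and mesenchymal, keratin and HOXA lists left of 0, whereas mitosis moves between -0.03 at 48 h and 0.81 at 60 h.

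Pan-endothelial genes changed in both directions, with 5 of 22 higher, 3 lower and a median of 0.09. CDH5, the endothelial cadherin, was at 1130 and 992 CPM in VC+ cultures and 975 and 1094 CPM in VC- cultures (0.04 ± 0.10, adjusted p = 0.917), and PECAM1 was not called either (-0.24 ± 0.09, adjusted p = 0.206), except without either 48 h library (-0.32). CD34, a sialomucin of endothelium and blood progenitors, was at 1057 and 946 CPM in VC+ cultures, against 547 and 463 CPM in VC- cultures (1.00 ± 0.09). ENG, a co-receptor for BMP9 and TGF-beta, rose by 0.64 ± 0.13 and the tight junction protein CLDN5 by 0.66 ± 0.14. TEK, the angiopoietin receptor, fell by 0.62 ± 0.11 on the log2 scale and FLT1, a VEGF receptor, by 0.39 ± 0.08. ENG and FLT1 were not called by DESeq2, ENG and CLDN5 not without either 48 h library (0.30 and 0.42), and TEK not without the VC- 60 h library (-0.43).

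SELE and APLNR stood out among vessel genes. SELE, the endothelial selectin that catches leukocytes, was at 132 and 160 CPM in VC+ cultures, against 34.4 and 38.5 CPM in VC- cultures (2.01 ± 0.14, adjusted p = 4.59e-08). APLNR, the apelin receptor of veins and sprouting cells, was at 131 and 132 CPM in VC+ cultures and 54.3 and 54.3 CPM in VC- cultures (1.28 ± 0.14), the 1 gene called of 9 venous and lymphatic genes. Of 15 arterial genes 2 rose and 3 fell. IGFBP3 rose by 0.69 ± 0.13, and the gap junction genes GJA4 and GJA5 fell by 0.51 ± 0.10 and 0.47 ± 0.10. SOX17, a factor of arterial and haemogenic endothelium, was at 90.5 and 105 CPM in VC+ cultures and 65.3 and 81.3 CPM in VC- cultures, short of the threshold (0.43 ± 0.14, adjusted p = 0.0934), and it was called in the fits of 8 and 10 libraries (0.43 and 0.42). ANGPT2, which destabilises vessels, was at 88.8 and 71.3 CPM in VC+ cultures and 153 and 198 CPM in VC- cultures (-1.12 ± 0.15), and was the 1 fall among 11 tip cell genes, of which CD34 rose. GJA5 was not called by DESeq2. IGFBP3 and GJA5 were not called without either 60 h library (0.59 and -0.36) and GJA4 not without the VC- 60 h library (-0.46).

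Notch genes changed in both directions, 2 higher and 3 lower of 15 tested. MFNG, the manic fringe enzyme that adds sugars to Notch receptors, was at 38.9 and 40.6 CPM in VC+ cultures, against 5.96 and 7.83 CPM in VC- cultures (2.53 ± 0.22). The receptor NOTCH2 was at 77.9 and 88.3 CPM in VC+ cultures and 176 and 205 CPM in VC- cultures (-1.19 ± 0.12), and NOTCH3 fell by 0.71 ± 0.16. The ligands JAG1 and JAG2 differed in direction: JAG1 fell by 0.80 ± 0.13 and JAG2 rose by 0.48 ± 0.12. NOTCH3 and JAG2 were not called by DESeq2, NOTCH3 not without either 60 h library (-0.34) and JAG2 not without either 48 h library (0.33).

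Mesenchymal and smooth muscle genes fell for 8 of 16 tested with none higher, and had a median of -0.96. COL3A1, a fibrillar collagen of mesenchyme (chr2:188974320-189012746, plus strand), was at 175 and 205 CPM in VC+ cultures, against 539 and 792 CPM in VC- cultures (-1.78 ± 0.11, adjusted p = 2.39e-08). COL1A1 was at 130 and 162 CPM in VC+ cultures and 243 and 380 CPM in VC- cultures (-1.06 ± 0.12). LUM, a fibroblast proteoglycan, was at 2.86 and 6.22 CPM in VC+ cultures and 13.8 and 25.4 CPM in VC- cultures (-2.12 ± 0.28), and PDGFRA, a mesenchymal growth factor receptor, at 0 and 0.289 CPM, against 2.14 and 2.48 CPM. Over 5 defining mesenchymal markers the sums were 396 and 482 CPM in VC+ cultures and 884 and 1360 CPM in VC- cultures, and these markers are part of the list itself. Without the VC- 48 h, VC+ 48 h or VC- 60 h library PDGFRA was not called.

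Genes of the TGF-beta response were lower for 7 of 18 and higher for 2, with a median of -0.31. LTBP2, a matrix protein of the latent TGF-beta binding family, was at 10.2 and 15.5 CPM in VC+ cultures and 42.0 and 54.8 CPM in VC- cultures (-1.91 ± 0.19). TAGLN, an actin-binding protein of smooth muscle, the receptor TGFBR2 and the matrix protein CTGF fell by 0.91 ± 0.15, 0.52 ± 0.10 and 0.66 ± 0.12. The related LTBP1 rose by 0.85 ± 0.16 and the BMP-binding BMPER by 0.74 ± 0.19. BMPER was not called by DESeq2 or without either 48 h library (0.38), and CTGF not from either late time alone (-0.74 to -0.59).

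Matrix genes did not move as a block. Of 21 collagen chains and modifying enzymes 4 fell and 2 rose, and their median was 0.12 at 48 h and -0.31 at 60 h. LOX, which cross-links collagen, was at 13.7 and 15.9 CPM in VC+ cultures, against 47.1 and 47.1 CPM in VC- cultures (-1.66 ± 0.19), and LOXL1 fell by 0.78 ± 0.15. The basement membrane chains COL4A1 and COL4A2 rose by 0.49 ± 0.08 and 0.35 ± 0.09. Fibronectin, FN1, was at 1095 and 1535 CPM in VC+ cultures and 2063 and 4519 CPM in VC- cultures (-1.23 ± 0.11), and the gelatinase MMP9 at 334 and 724 CPM in VC+ cultures and 668 and 1439 CPM in VC- cultures (-0.99 ± 0.09). The VC+ 60 h value of MMP9 exceeded the VC- 48 h value. DESeq2 called neither LOXL1 nor COL4A2, and COL4A2 was not called without either 48 h library (0.25).

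All 4 HOXA genes tested fell, with a median of -3.27. HOX genes give cells their position along the body, and high-numbered members mark posterior parts. HOXA9 was at 0.451 and 0.578 CPM in VC+ cultures, against 8.41 and 7.30 CPM in VC- cultures (-3.87 ± 0.53). HOXA10 was at 0.601 and 1.01 CPM in VC+ cultures and 9.02 and 5.48 CPM in VC- cultures (-3.09 ± 0.52), HOXA11 differed by -3.45 ± 0.51 and HOXA13 by -2.42 ± 0.35. The VC+ values of HOXA9, HOXA10 and HOXA11 rest on 2 to 9 counts per library, and a floor of 3 counts is 0.439 to 0.458 CPM there. In the HOXB cluster, with higher levels, HOXB9 (173 and 184 CPM in VC+ cultures, 298 and 349 CPM in VC- cultures, -0.85 ± 0.11) and HOXB8 (-0.57 ± 0.14) fell of 8 tested. HOXB8 was not called by DESeq2 or without either 60 h library (-0.38), and HOXA10 not without either 48 h library (-2.41).

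Keratins of simple epithelia fell for 3 of 4 tested genes of the epithelial list. KRT8 was at 235 and 239 CPM in VC+ cultures, against 582 and 660 CPM in VC- cultures (-1.38 ± 0.10, adjusted p = 1.34e-07). Its filament partner KRT18 was at 251 and 223 CPM in VC+ cultures and 471 and 463 CPM in VC- cultures (-0.97 ± 0.10), and KRT19 fell by 1.23 ± 0.20. The defining epithelial genes EPCAM and CDH1 were at 0.15 to 3.18 CPM in VC+ cultures and 0.13 to 1.83 CPM in VC- cultures. Of 8 cardiac and sarcomere genes, the cardiac actin ACTC1 (-1.54 ± 0.16) and the heart factors GATA4 (-1.08 ± 0.16) and HAND1 (-2.13 ± 0.35) fell. MYL4, an atrial and embryonic myosin light chain, rose (1.74 ± 0.27). STMN2, a tubulin regulator of neurons, was the 1 called of 3 neural genes, at 0.752 and 3.18 CPM in VC+ cultures and 7.79 and 11.3 CPM in VC- cultures (-2.36 ± 0.43), and was not called without either 48 h library (-1.82). No pluripotency or hepatic gene was called of 6 and 4 tested, with 1 of each at an unadjusted edgeR p under 0.05.

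Wnt genes fell for 4 of 12 tested and rose for none. RSPO2, a secreted enhancer of Wnt signalling, had no count in either VC+ culture and was at 3.97 and 4.96 CPM in VC- cultures, at least 9.95-fold lower in VC+ cultures against a floor of 3 counts per library. LRRN1, a leucine-rich repeat protein of the neural membrane, was likewise at 0 in both VC+ cultures, against 2.60 and 3.78 CPM in VC- cultures, at least 7.1-fold lower. RSPO3 (0.15 and 0.434 CPM in VC+ cultures, 2.90 and 2.48 CPM in VC- cultures), the Wnt inhibitor DKK1 (-1.37 ± 0.24) and the Wnt target AXIN2 (-1.42 ± 0.37) also fell. DESeq2 called none of RSPO2, RSPO3, LRRN1 and AXIN2, and AXIN2 was not called in the fits of 8 and 10 libraries either (adjusted p = 0.0725 and 0.0775). From either late time alone RSPO3 (-4.12 to -2.46) and AXIN2 (-1.96 to -0.94) were not called. DKK1 was not called without the VC- 60 h library (-1.37).

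Interferon response genes rose for 4 of 16 tested, with none lower and a median of 0.21. The median log2 ratio was 0.35 at 48 h and 0.04 at 60 h. Summed over the list, the level was 759 CPM in VC+ and 660 CPM in VC- cultures at 48 h. At 60 h it was 895 CPM in VC+ and 1014 CPM in VC- cultures. IFIT1, which binds foreign RNA, was at 38.8 and 38.7 CPM in VC+ cultures, against 14.2 and 18.8 CPM in VC- cultures (1.24 ± 0.19). OAS3, which activates RNase L, was at 7.82 and 12.3 CPM in VC+ cultures and 1.07 and 2.74 CPM in VC- cultures (2.43 ± 0.40). ISG15, a ubiquitin-like protein, was at 70.8 and 43.8 CPM in VC+ cultures and 22.8 and 32.1 CPM in VC- cultures (1.04 ± 0.21), and IFI6 at 4.06 and 5.78 CPM, against 0.153 and 1.304 CPM (2.80 ± 0.61). DESeq2 called neither ISG15 nor IFI6, and without either 48 h library ISG15 (0.46) and IFI6 (2.14) were not called. TMEM173, the STING sensor upstream of interferon induction, was at 35.9 and 45.7 CPM in VC+ cultures and 8.10 and 9.65 CPM in VC- cultures (2.20 ± 0.21). It was named after its values were seen.

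The promoters of the 4 called interferon genes hold the core of the interferon response element, GAAA and again GAAA with 2 bases of any kind between them (TTTC and TTTC likewise on the other strand), in capitals here, from the same RefSeq windows.
ISG15, chr1:1013372-1013411, plus strand: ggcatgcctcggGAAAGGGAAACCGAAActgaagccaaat
IFI6, chr1:27672264-27672360, minus strand: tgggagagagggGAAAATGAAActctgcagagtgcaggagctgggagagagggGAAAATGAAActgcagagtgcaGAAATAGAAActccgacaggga
IFIT1, chr10:89392495-89392541, plus strand: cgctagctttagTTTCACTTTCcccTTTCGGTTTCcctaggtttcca
OAS3, chr12:112938437-112938473, plus strand: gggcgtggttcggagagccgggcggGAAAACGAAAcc

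In ISG15 the 2 matches overlap, and IFI6 has 3 separate ones. All 4 called genes held the core, and so did 7 of the 9 with a window among the 12 tested and not called higher. It was held by 7.9% of all 189 genes called higher with a window. Counted by window its share was 5.19% over the windows of all genes called higher and 3.57% over all windows.

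Of the antigen presentation list, 9 members in or near the major histocompatibility complex had no count in any of the 4 libraries, so the list cannot be read. Among NF-kB targets and chemokines SELE rose, and CX3CL1 (-1.36 ± 0.26) and CCL2 (-1.56 ± 0.41) fell of 13 tested. Neither chemokine was called by DESeq2. CCL2 was not called in the fits of 8 and 10 libraries (edgeR adjusted p = 0.0781 and 0.0869). Nor was CCL2 called from either late time alone (-1.77 to -1.28). CX3CL1 was not called without a 48 h library or the VC- 60 h library (-1.51 to -1.24). No gene of 14 in the AP-1 and immediate early list was called, with 2 at an unadjusted edgeR p under 0.05.

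Of 22 DNA replication genes 7 rose, and the median was 0.51. All 22 had a positive difference, against 7551 of all 14793 genes tested. The helicase loader MCM10 was at 41.3 and 27.8 CPM in VC+ cultures, against 24.0 and 12.8 CPM in VC- cultures (0.95 ± 0.20), and the helicase subunits MCM2 and MCM5 rose by 0.69 ± 0.14 and 0.54 ± 0.13. Summed over the replication list, the level was 2029 and 1595 CPM in VC+ cultures and 1637 and 1097 CPM in VC- cultures. Mitosis genes summed to 2351 and 1778 CPM in VC+ cultures and 2343 and 954 CPM in VC- cultures, a ratio of 1.00 at 48 h and 1.86 at 60 h, from 1 library each and with no test between the times. MKI67, the Ki-67 antigen of dividing cells, was the 1 called of 20, at 327 and 252 CPM in VC+ cultures and 267 and 101 CPM in VC- cultures (0.80 ± 0.17). Without either 60 h library it was at 0.30 and not called, nor was it by DESeq2, which called neither MCM10, MCM2 nor MCM5. MCM5 was also not called without either 48 h library (0.51) or the VC- 60 h library (0.57).

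**Figure D3:**
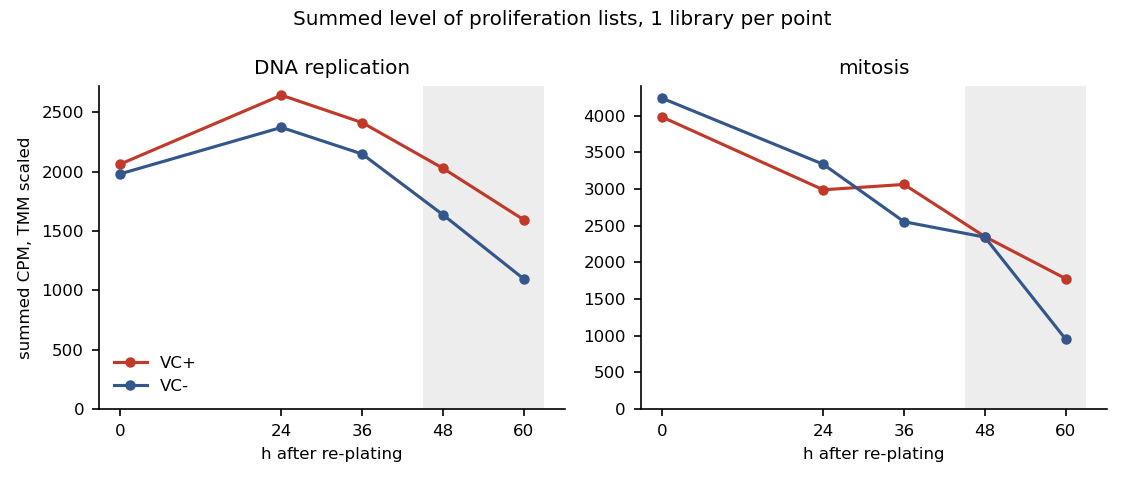
Summed CPM of the DNA replication list (left) and the mitosis list (right) in VC+ (red) and VC- (blue) cultures over hours after re-plating, 1 library per point, with 48 and 60 h shaded. The mitosis sums of both conditions are alike at 48 h (2351 CPM in VC+ and 2343 CPM in VC- cultures) and separate at 60 h (1778 CPM in VC+ and 954 CPM in VC- cultures).

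Targets of p53 fell for 5 of 18 tested, and the median was -0.34. A negative difference was found for 17 of the 18, against 7241 of all 14793 genes tested. CDKN1A, the cell cycle inhibitor p21, was at 167 and 198 CPM in VC+ cultures, against 316 and 400 CPM in VC- cultures (-0.96 ± 0.11). ZMAT3, an RNA-binding protein, and GDF15, a stress cytokine, fell by 0.72 ± 0.14 and 0.86 ± 0.19. Of 18 hypoxia and glycolysis genes EGLN3 rose (0.95 ± 0.22) and PFKFB3 (-0.69 ± 0.15) and the glucose transporter SLC2A1 (-0.51 ± 0.13) fell. DESeq2 called none of GDF15, EGLN3, PFKFB3 and SLC2A1. Without either 60 h library GDF15 (-0.51), EGLN3 (0.80) and PFKFB3 (-0.54) were not called, nor SLC2A1 without either 48 h library (-0.25). None was called of 15 cholesterol synthesis genes, 14 heat shock and unfolded protein genes or 21 cytosolic ribosomal protein genes, whose median was 0.05, and 4 genes of the first list and 0 of the other two were at an unadjusted edgeR p under 0.05.

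Of 24 genes of PRC2 and of chromatin dioxygenases, the enzymes that use vitamin C, all tested, none was called by edgeR or DESeq2 and 2 were at an unadjusted edgeR p under 0.05 (KDM3A and TET3). In all, 12 had a positive and 12 a negative difference, and the median was 0.01. KDM6A, which removes trimethyl marks from lysine 27 of histone H3, was at 37.3 and 42.5 CPM in VC+ cultures and 40.5 and 37.4 CPM in VC- cultures (0.04 ± 0.16). KDM6B, its relative, was at 77.4 and 76.2 CPM in VC+ cultures and 75.0 and 87.3 CPM in VC- cultures (-0.07 ± 0.14), and EZH2, which writes the same mark, differed by 0.27 ± 0.16. Transcript levels say nothing about the activity of these enzymes. Of 13 genes of vitamin C transport and redox balance 4 fell, HMOX1 (-0.88 ± 0.17), the cystine transporter SLC7A11 (-0.65 ± 0.17), SLC2A1 and SLC2A3 (-0.38 ± 0.10). The glucose transporters SLC2A1 and SLC2A3 also carry the oxidised form of vitamin C. None of these 4 was called by DESeq2. HMOX1 was not called without either 60 h library (-0.58) and SLC2A3 not without either 48 h library (-0.21). SLC7A11 was not called from either late time alone (-0.72 to -0.58).

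The suspended and adherent VC+ cells at 60 h, 1 library each and so without a test, show where the called genes are found. Of the 274 genes called higher, 56.6% were at least 2-fold higher in suspended than in adherent cells, against 10.7% of all genes tested. ITGA2B was at 774 CPM in suspended and 29.7 CPM in adherent cells, SPI1 at 144 and 12.3 CPM, and the potassium channel gene KCNH2 at 451 and 23.0 CPM. A further 24.8% were at least 2-fold lower in suspended cells (15.9% of all genes): SELE at 20.8 CPM in suspended and 156 CPM in adherent cells, CD34 at 334 and 1113 CPM, and CD93, an endothelial lectin, at 88.7 and 697 CPM. MFNG was alike in both, at 43.4 CPM in suspended and 37.8 CPM in adherent cells, as was CD24 within 2-fold (370 and 207 CPM). The genes called higher thus divide between the fractions, and neither holds all of them.

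Of the 369 genes called lower, 60.2% were at least 2-fold lower in suspended cells, against 15.9% of all genes tested. At least 2-fold higher were 2.98%, against 10.7% of all genes tested. COL3A1 was among those lower in suspended cells, at 74.7 CPM in suspended and 213 CPM in adherent cells. KRT8, at 149 and 232 CPM, and NOTCH2, at 89.5 and 94.9 CPM, were within 2-fold. The adherent VC+ cells held COL3A1, KRT8 and NOTCH2 at 213, 232 and 94.9 CPM, below both VC- cultures at 48 and 60 h, and COL3A1 and KRT8 close to the VC+ cultures. How far the share of suspended cells differed between VC+ and VC- cultures was not tested, since no VC- fraction is among the libraries used here.

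**Figure D4:**
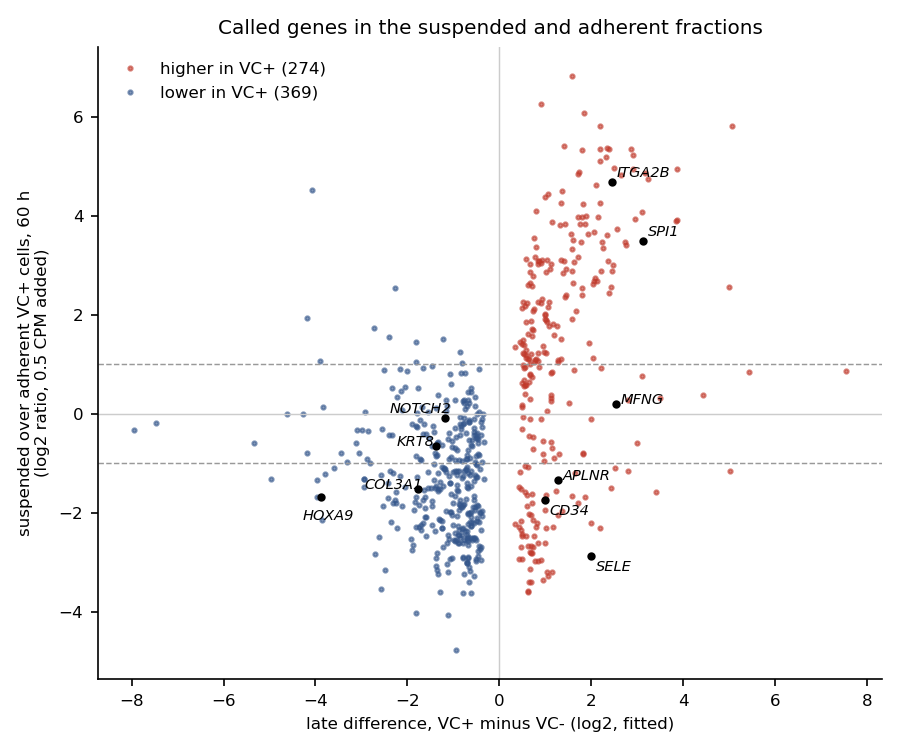
Each point is 1 of the 643 called genes, with its fitted late difference (VC+ minus VC-, log2) on the horizontal axis and its log2 ratio of suspended over adherent VC+ cells at 60 h (0.5 CPM added) on the vertical axis. Dashed lines mark 2-fold. Genes higher in VC+ cultures (red) lie mostly above, with a second group below led by SELE, and genes lower (blue) lie mostly below, with fitted values of genes at 0 in 1 condition not being bounds.

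At earlier times, in libraries that the test did not use, most called genes already leaned the same way. Of the 274 called higher, 63.5% had a VC+ over VC- ratio above 1 at 0 h, 84.3% at 24 h and 94.5% at 36 h, against 49.9%, 49.4% and 49.8% of all genes tested. Of the 369 called lower, 76.2%, 85.6% and 95.9% were below 1, against 50.0%, 50.5% and 50.2%. At least 2-fold higher levels were found for 15.3% of the higher genes at 0 h, 25.9% at 24 h and 28.8% at 36 h, against 3.06%, 2.34% and 1.76% of all genes tested. At least 2-fold lower levels were found for 21.7%, 27.1% and 30.6% of the lower genes, against 3.08%, 3.27% and 2.89%. The counts depend on the 0.5 CPM added: with 5 CPM added the shares were 9.12%, 10.95% and 10.22% of the higher genes, against 0.723%, 0.379% and 0.27% of all genes tested, and 10.03%, 8.67% and 12.2% of the lower genes, against 0.662%, 0.433% and 0.446%. The courses differed between genes. HOXA9 and KRT8 were already lower at 0 h, with KRT8 at 260 CPM in VC+ and 626 CPM in VC- cells, and MFNG already higher, at 24.7 CPM in VC+ and 6.56 CPM in VC- cells. In contrast ITGA2B was at 11.9 CPM in VC+ and 13.8 CPM in VC- cells at 0 h, SELE at 33.0 and 46.3 CPM, and COL3A1 at 351 and 306 CPM, and these separated from 24 h on.

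**Figure D5:**
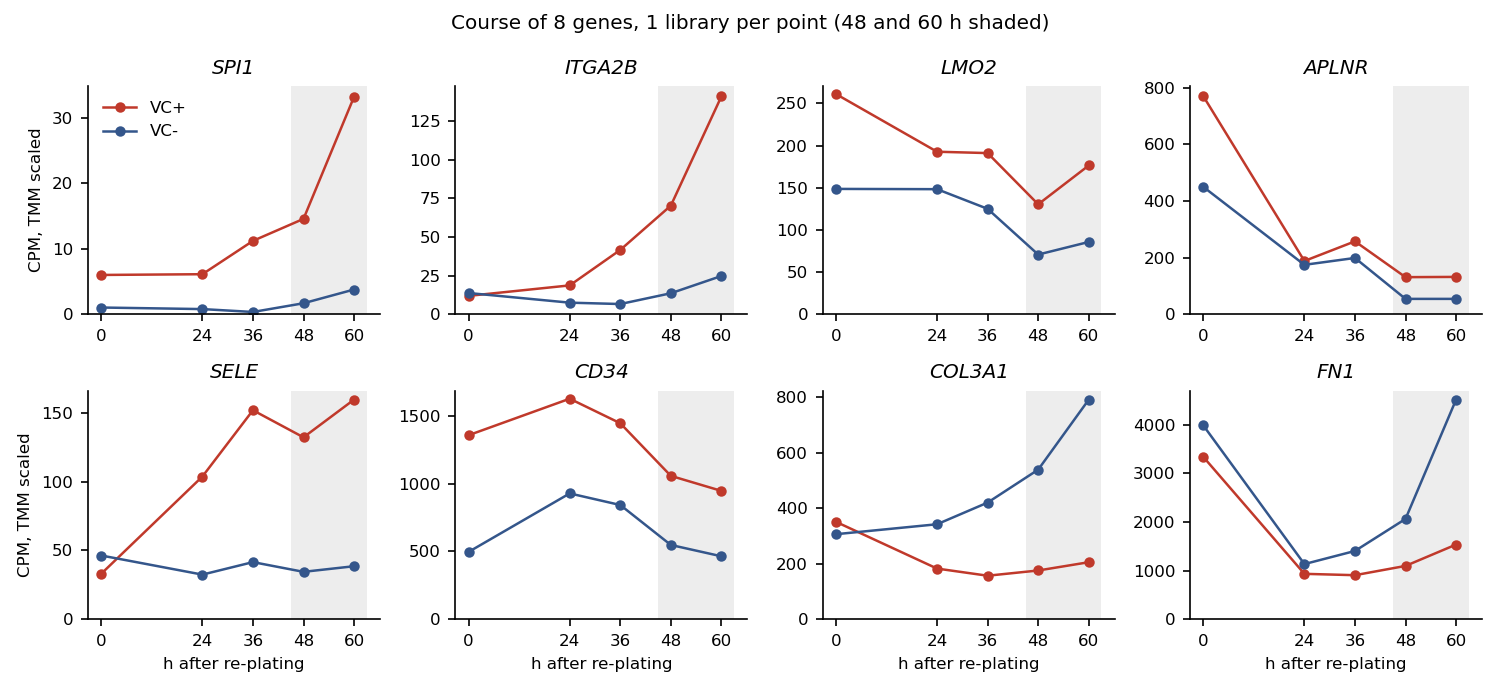
CPM of 8 called genes in VC+ (red) and VC- (blue) cultures at 0, 24, 36, 48 and 60 h after re-plating, 1 library per point, with 48 and 60 h shaded. ITGA2B, SELE and COL3A1 lie close together at 0 h and apart later, and CD34 and LMO2 lie apart throughout. APLNR is already apart at 0 h, at 770 CPM in VC+ and 450 CPM in VC- cells. It is at 188 and 174 CPM at 24 h, at 257 and 199 CPM at 36 h and at 131 and 54.3 CPM at 48 h.

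Whether the late difference was unlike that at 24 and 36 h, in either direction, was tested with 8 libraries. edgeR called 0 of 14612 genes (0.0%), with 865 at an unadjusted p under 0.05, and DESeq2 called 1, with 259 under 0.05. That 1 gene was APLNR, whose late difference exceeded the early one by 1.03 ± 0.15 (edgeR adjusted p = 0.0591, DESeq2 adjusted p = 0.00496, from 5.05e-07 to 0.566 over all alternatives). Without either 48 h library APLNR was called by edgeR with the same size (1.03). It was also called without the VC+ 60 h library (1.03) or a 36 h library (1.162 and 1.175). In this test too, for APLNR and the genes below, leaving out 1 library removes the whole comparison at its time. Such fits are not separate checks of single libraries. The log2 ratios of APLNR at 48 and 60 h were alike (1.26 and 1.27), so a like size was to follow. Leaving out 1 library at a time gave 1 to 55 calls, the most without the VC- 48 h library. Next in order of p, and not called, were the calcium pump ATP2A3 (0.77 ± 0.14), the amino acid transporter subunit SLC3A2 (-0.97 ± 0.18), the growth cone protein GAP43 (0.92 ± 0.17) and PTGS1, a cyclooxygenase (1.48 ± 0.27), all with an edgeR adjusted p = 0.152. FN1 differed by -0.78 ± 0.16 and IFIT1 by -1.11 ± 0.25, also not called. ATP2A3, SLC3A2, GAP43, PTGS1, FN1 and IFIT1 were all called without a filter on low counts. PTGS1 and FN1 were also called without the VC- 48 h library and without the VC- 36 h library. ATP2A3, SLC3A2 and IFIT1 were called without the VC- 48 h but not without the VC- 36 h library, and GAP43 the other way round.

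Some of the largest differences are uncertain. VAMP7, a vesicle fusion protein whose locus the assembly holds in 2 copies, was at 2.71 and 52.8 CPM in VC+ cultures and 0 and 0.261 CPM in VC- cultures. LSM14A, an RNA-binding protein, was at 1.35 and 0.723 CPM in VC+ cultures, against 1.83 and 50.0 CPM in VC- cultures. In 6 called genes, these 2 among them, 1 condition differed by at least 10-fold between 48 and 60 h. LSM14A and the pseudogenes RPL9P7 (6.01 and 17.8 CPM in VC+ cultures, 135 and 209 CPM in VC- cultures), HMGB1P10 and KRT8P45 have near-copies whose reads the counting could split. LSM14A was not called without either 60 h library (-0.43), VAMP7 not without the VC- 60 h library and KRT8P45 not without the VC- 48 h library (-2.95). DESeq2 did not call LSM14A.

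The other largest differences were in genes of low level. TREML2, a receptor of the myeloid TREM family, was at 6.77 and 8.96 CPM in VC+ cultures and 0.611 and 1.04 CPM in VC- cultures (3.23 ± 0.48), LRMP, a lymphoid membrane protein, at 2.56 and 7.95 CPM, against 0.153 and 0.13 CPM, and FYB1, an adaptor of T cells and platelets, at 6.01 and 10.3 CPM, against 0.764 and 1.304 CPM. PSD4, an exchange factor for ARF6, was at 3.31 and 7.23 CPM in VC+ cultures and 0.306 and 0.391 CPM in VC- cultures. Among the falls, AFF3, a nuclear protein of lymphoid cells, was at 0.15 and 0.145 CPM in VC+ cultures and 1.83 and 9.0 CPM in VC- cultures, VGLL2, a cofactor of TEAD factors, at 0 and 1.01 CPM, against 5.20 and 10.3 CPM, and the muscle protein PDLIM3 at 0.15 and 1.01 CPM, against 5.20 and 11.6 CPM. CRTAC1, a cartilage matrix protein, was at 0.301 and 1.01 CPM in VC+ cultures and 6.11 and 5.09 CPM in VC- cultures. DESeq2 called neither VGLL2 nor CRTAC1. CRTAC1 was not called without either 48 h library (-2.30), PSD4 not without either 60 h library (3.37) and FYB1 not without the VC- 60 h library (2.96). Among all called genes, 12 of the higher had at most 3 counts in both VC- libraries and 14 of the lower at most 3 in both VC+ libraries.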

How the data were processed

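The authors deposited 1 table per library with raw counts of reads for 58302 gene identifiers, of which 58039 were named from GENCODE release 29. The submitters' processing notes name the build GRCh38, DESeq 1.18.1, HTSeq 0.6.0, HISAT2 2.0.4 and SAMtools 1.3.1, without roles. The annotation and strand used for counting are not given in the sources used here, so overlapping, antisense and near-copy genes are uncertain. Per the labels' protocols a TruSeq kit was used on RNA extracted with Trizol. The 4 sorted libraries were not used.

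Groups follow the sample titles. The test was edgeR's (4.0.16, R 4.3.3) quasi-likelihood F test with TMM and filterByExpr by condition, two-sided, adjusted over all genes tested. The code of the fit was tried on simulated counts with a fixed dispersion and no effect of time. Such counts cannot show the error rate in these libraries. SEs come from the F statistic. CPM of suspended and adherent cells are of the library total. Ratios at single times had 0.5 CPM added. Floors are 3 counts per library and hold for counting error alone, because reads were counted and not molecules. DESeq2 1.42.0, other filters, scalings and sets of libraries were tried.

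Named genes are the 10 largest called rises and falls (at least 5 CPM in the higher condition), up to 3 genes per list with the smallest p, and 14 set genes. Other genes were named after their values were seen, and a few genes are not reported here. The groups, the 35 lists and their members were chosen with earlier results of these data known. List genes that failed the count filter were not tested, and lists are described by counts and medians only. Promoter sequences are from RefSeq (GRCh38.p14), with 189 of the 274 genes called higher matched to a window by symbol.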

Additional observations from a re-analysis of the deposited data

How the results depend on the processing

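No paired analysis was possible because the course titles carry no replicate number. Time point served as the block instead. The late test's 643 calls (274 higher, 369 lower) were within 1.5 times under DESeq2 size factors, other filters and fits of 8 or 10 libraries (490 to 844). DESeq2 gave 223 (89 higher, 134 lower) and no term for time 89 (41 and 48). With a filter of 1 CPM in 2 libraries 12 of 126 genes followed singly lost their call (MYB, MRC1, JAG2, PDGFRA, BMPER, COL4A2, RSPO3, AXIN2, CCL2, SLC2A1, SLC7A11 and SLC2A3). VWF, which is not counted among these 126, lost its call too (-0.443, edgeR adjusted p = 0.101). Without 1 late library at a time the count was 415 to 721, with 172 to 389 higher and 243 to 332 lower, lowest without the VC- 60 h library. The calls of 643 genes kept their sign under each alternative that tested them, except 1 gene without a 48 h library. Other filters, scalings and DESeq2 refit the same counts, and fits without a late library rest on the other late time. Like signs were thus largely set in advance and lend the calls no further weight. Among named genes not called, the sign turned without a VC- or VC+ 48 h library for GFI1 (-0.51 and -0.509) and CDH5 (-0.136 and -0.134), and without a VC- or VC+ 60 h library for KDM6A (-0.111 and -0.111) and KDM6B (0.053 and 0.054). The late minus early test gave 1 call with DESeq2 and 1 with 10 libraries (both APLNR), 2 at 1 CPM in 2 libraries (both higher), 104 without a filter (43 higher, 61 lower), and 1 to 55 without 1 library (1 to 33 higher, 0 to 22 lower). With 5 CPM added, at least 2-fold ratios fell to 25, 30 and 28 of the higher genes at 0, 24 and 36 h, against 42, 71 and 79, and to 37, 32 and 45 of the lower genes, against 80, 100 and 113. By fraction, 11 lower genes were at least 2-fold higher in suspended cells, 5 with 5 CPM added and 2 at 4-fold. At 4-fold, 42 higher and 112 lower genes were lower in suspended cells, against 68 and 222. Genes of a few counts are limited by depth.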

Other observations

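Called genes outside the lists, chosen here after their values were seen, include carriers, receptors and matrix proteins. SLC40A1, the iron exporter ferroportin, was at 56.8 and 99.8 CPM in VC+ cultures at 48 and 60 h, against 19.3 and 22.0 CPM in VC- cultures (log2 difference 1.89 ± 0.18, SE), and at 449 CPM in suspended against 27.7 CPM in adherent VC+ cells. CLEC11A, a growth factor for blood progenitors and bone, was at 129 and 131 CPM in VC+ cultures and 50.3 and 52.96 CPM in VC- cultures (1.34 ± 0.14). FERMT3, which activates integrins in blood cells, rose by 1.05 ± 0.13. OIT3 rose by 1.15 ± 0.12 and HAPLN1, a linker of hyaluronan, by 0.68 ± 0.10. In suspended VC+ cells at 60 h OIT3 was at 32.2 CPM, against 297 CPM in adherent ones, and HAPLN1 at 113 CPM, against 789 CPM.

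Of the falls, SLC7A8, an amino acid transporter, was at 8.12 and 35.4 CPM in VC+ cultures and 59.8 and 169.7 CPM in VC- cultures (-2.49 ± 0.17), with the VC+ values below both VC- values. SSTR1, a somatostatin receptor, was at 17.3 and 25.2 CPM in VC+ cultures and 80.9 and 119.6 CPM in VC- cultures (-2.23 ± 0.16). MME, the peptidase CD10, fell by 1.66 ± 0.15 on the log2 scale, the endocytic receptor LRP1 by 1.25 ± 0.13, the matrix proteoglycan VCAN by 1.46 ± 0.17, IGFBP5 by 1.39 ± 0.16 and the adhesion molecule ALCAM by 2.15 ± 0.24. IGFBP5 was not called by DESeq2 (adjusted p = 0.112). At 60 h suspended and adherent VC+ cells held SLC7A8 at 5.03 and 48.4 CPM and ALCAM at 11.8 and 8.38 CPM.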
